A study of Sus scrofa with 33 samples.

Results

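The comparison described here is that of Large White (LW) with Creole pigs after heat exposure, in pituitary tissue hybridised to 60-base Agilent oligonucleotide arrays. LW is a lean commercial breed, and the Creole pig of the Caribbean is a local breed of the humid tropics. The members were the 6 arrays whose titles name LW at 30 °C and the 6 whose titles name Creole at 30 °C, 12 of the 33 arrays of the series, with 1 array per castrated male growing pig. The groups are called LW HS and Creole HS (HS, heat stress), and those of the thermoneutral condition at 24 °C are called LW TN (5 arrays) and Creole TN (5 arrays). Crosses of both breeds (F1) made up 5 HS and 6 TN arrays. TN pigs were slaughtered before the heat and HS pigs after it, at 5 days in the series text and at 4 or 5 days in the methods of the study. The sample labels give 30 °C for the heat and the series text gives 32 °C. No genetic manipulation or drug was used in any group. Littermates were divided between the temperatures, and by the design in the methods of the study each HS group also held littermates and penmates. The sire, dam, pen and slaughter day of each pig were not in the labels, so that family and breed cannot be fully separated. The tests below took the 6 arrays of an HS group as independent animals. Their p-values measure the spread between the animals of these groups and, with litter and pen not allowed for, may be too small.

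The anterior pituitary holds endocrine cells that make growth hormone, prolactin, thyrotropin, the gonadotropins and the POMC-derived peptide corticotropin. Most of these cell types answer a hypothalamic releasing hormone through a surface receptor and are held back by feedback from the target gland. In heat, the thyroid and adrenal axes are those best known to change, since thyroid hormones set basal heat production. Bulk tissue was measured, so that fewer cells of a type and less RNA per cell cannot be told apart.

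All values below are log2 of quantile-normalised intensity, on which a difference of 1 is a 2-fold change, and differences are LW HS minus Creole HS with their SE. A probe was called changed where the adjusted p-value of limma, fitted on all 33 arrays and adjusted over all 45667 probes, was below 0.05. The hormone genes GH1, PRL, POMC and CGA lay between 18.83 and 19.12 on every one of the 12 arrays by their brightest probe. The labels name the pituitary gland and the methods of the study its anterior lobe. AVP, a hormone of the posterior lobe, averaged 17.03 in LW HS and 16.94 in Creole HS, and the skeletal muscle actin ACTA1 averaged 12.74 and 12.94. Neither passed the test between the breeds (adjusted p = 0.47 and 0.26). The summed intensity of every marker list of another cell type had overlapping ranges in LW HS and Creole HS. No list of fibroblasts was among them, so that this cell type was not examined. For the skeletal muscle and fat list the ranges met only at their ends, at 12024.9 to 14472.5 in LW HS and 14235 to 16122.7 in Creole HS.

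One array, LW HS 3, is named LW in its title and Creole in its breed field, and was analysed by its title. Its breed was examined with 294 probes that separated LW TN from Creole TN in a fit of those 10 arrays, none of them an HS array. On a scale where 0 is the Creole TN mean and 1 the LW TN mean, LW HS 3 had a median position of 0.88. The other LW HS arrays lay between 0.77 and 0.99, and the Creole HS arrays between -0.02 and 0.17. LW HS 3 was thus among the LW arrays on probes chosen without it. F1 HS arrays lay between 0.37 and 0.55.

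**Figure D1:**
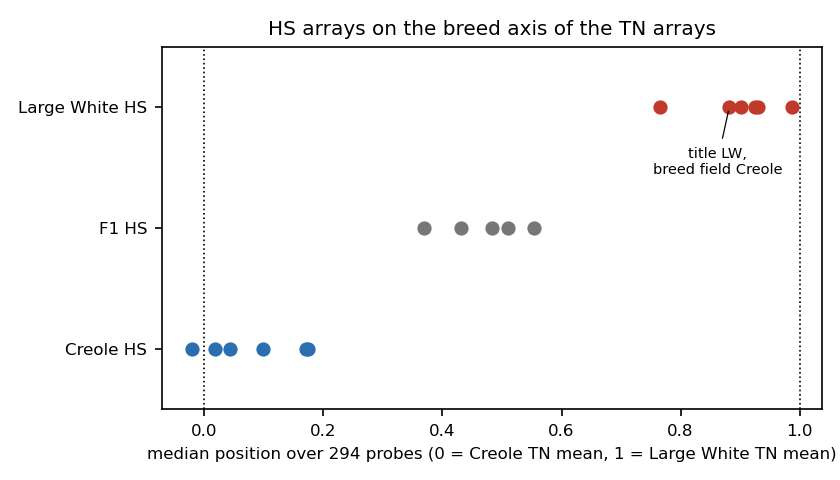
Median position of each array between the Creole TN mean (0) and the LW TN mean (1), over 294 probes chosen on the TN arrays alone; each point is 1 array, by group. The 6 LW HS arrays sit between 0.77 and 0.99, with LW HS 3 at 0.88, and the 6 Creole HS arrays between -0.02 and 0.17.

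The probe sequences below belong to genes on which the rest of the account turns, and show what "several probes of a gene" stands for. All are read 5′ to 3′ from the probe table of the arrays. Both KIT probes share a run of 57 bases, in capitals, and so read 1 stretch of the transcript.
KIT A_72_P180731: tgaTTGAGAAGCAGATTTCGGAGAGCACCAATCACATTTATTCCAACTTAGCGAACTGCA
KIT O299: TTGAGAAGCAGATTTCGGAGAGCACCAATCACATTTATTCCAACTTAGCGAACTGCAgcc

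OAZ3 is read by the first probe below, whose 60 bases are spotted again under a second probe name, O3277, and by another probe from a separate stretch.
OAZ3 A_72_P437459: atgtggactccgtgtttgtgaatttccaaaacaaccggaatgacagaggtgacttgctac
OAZ3 A_72_P619999: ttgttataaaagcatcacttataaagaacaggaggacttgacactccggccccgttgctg

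The next probes read FUT2, whose Creole HS arrays lie at 2 levels; PTGDS, lower on both of its probes (its second probe, O9061, is the same 60 bases); and ESR1, the oestrogen receptor of the gland.
FUT2 A_72_P795238: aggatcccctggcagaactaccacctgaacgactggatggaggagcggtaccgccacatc
PTGDS A_72_P223832: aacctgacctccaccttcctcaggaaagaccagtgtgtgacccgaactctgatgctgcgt
ESR1 A_72_P444427: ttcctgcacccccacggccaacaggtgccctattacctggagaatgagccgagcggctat

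Between LW HS and Creole HS, 1424 of 45667 probes (3.12%) were called, 805 higher in LW (1.76%) and 619 lower (1.36%). Before adjustment, 7703 probes (16.9%) had p below 0.05. The median size of a called difference was 0.55 and 200 called probes differed by 1 or more. On 1092 probes (2.39%) the 6 LW HS and 6 Creole HS arrays did not overlap, and 670 of those probes were called (1.47%). Of the called probes, 725 carried a gene symbol and 699 did not. By the brightest probe of each symbol, 337 of 10068 genes (3.35%) were called, 201 higher (2%) and 136 lower (1.35%), and 530 genes (5.26%) had any called probe, with a median difference of 0.0034 over all genes. Without LW HS 3 the count of called probes fell to 846, with that array taken as Creole to 204, and without Creole HS 1 or Creole HS 2 to 710 or 843.

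The same breed difference was then read on the TN arrays, which are other pigs but, by the methods of the study, littermates of the HS pigs (3 litter blocks per breed), so that the TN values are not independent of family. Of the 1424 probes called in HS, 1299 had a TN difference of the same sign (91.2%, 95% Wilson interval 89.6 to 92.6% for counting error only), against 59.6% of all probes. In a fit of the 10 TN arrays alone, 739 of the called probes (51.9%) had an unadjusted p below 0.05 in the same direction, against 8.10% of all probes (9.48% in either direction), and 173 passed adjustment in that direction (12.1%; 0.644% of all probes in either direction). The TN differences were smaller, with a median of 0.33 in the HS direction where the HS median was 0.55. Selection on the HS arrays enlarges the HS values, so that these medians are not a comparison of effects. With TN arrays in the 33-array fit, 434 probes were called in TN (0.95%), and 244 probes were called at both temperatures (17.1% of those called in HS and 56.2% of those called in TN), none with opposite signs. The breed by temperature interaction, which is the test of a difference particular to heat, called 0 of 45667 probes (0%) in limma (smallest adjusted p = 0.92), with 2405 probes (5.27%) at an unadjusted p below 0.05.

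**Figure D2:**
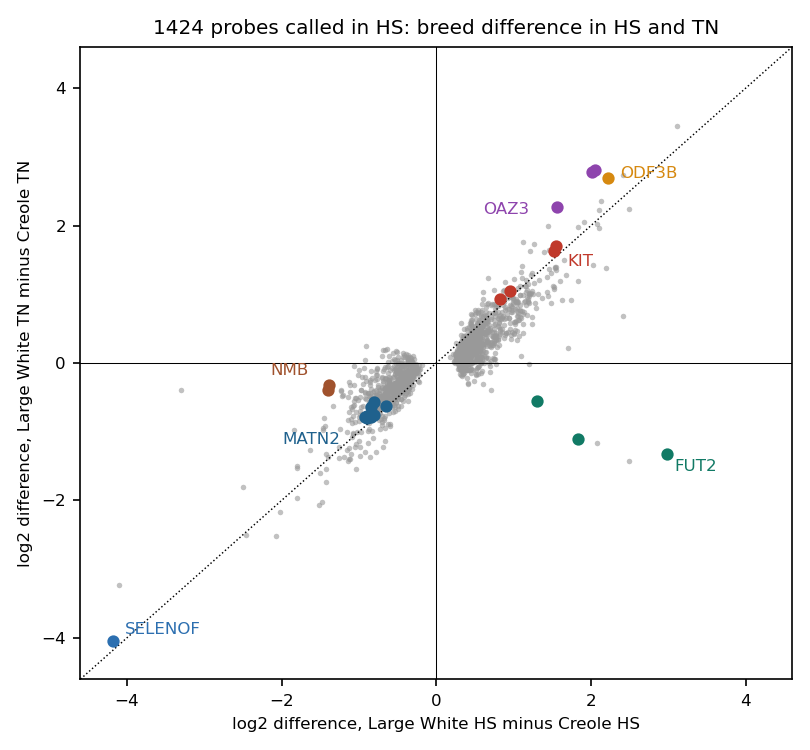
LW minus Creole difference in TN (vertical axis, log2) against that in HS (horizontal axis, log2) for each of the 1424 probes called in HS, with probes of 7 genes coloured and the line of equality dotted. Of these, 1299 lie on the same side of 0 in both; the 3 FUT2 probes are among the exceptions.

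KIT, the receptor tyrosine kinase for stem cell factor whose alleles underlie white coat in pigs, was higher on all 4 probes, by 0.82 to 1.55. On its brightest probe LW HS ran from 10.46 through a median of 10.89 to 11.06, and Creole HS from 8.91 through 9.32 to 9.58, a difference of 1.55 ± 0.13 (limma adjusted p = 3.3e-09). No array of one breed reached the range of the other, and within slides 2 to 5, which held both groups, the difference was between 1.02 and 1.83. In TN it was 1.71. NTRK3, the receptor for neurotrophin-3, was higher on 4 probes from 3 stretches, by 0.59 to 1.24, and by 0.27 to 0.57 in TN. The call at 0.59 was lost in 10 of 12 fits without 1 array (largest adjusted p = 0.108) and in the fit of the 12 HS arrays alone, and the calls of the other 3 probes held in both. Its brightest probe spanned 10.18, 10.94 and 11.13 (lowest, median and highest) in LW HS and 9.31, 9.59 and 10.13 in Creole HS, without overlap (adjusted p = 0.00152). CCK, the peptide cholecystokinin, was higher by 0.89 to 1.43 on 3 probes that all read 1 stretch.

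OAZ3, an antizyme that lowers ornithine decarboxylase and so polyamine synthesis, was higher on all 3 probes by 1.56 to 2.05. On the brightest, LW HS ran from 8.06 through 10.55 to 11.15 and Creole HS from 7.94 through 8.15 to 8.46, a difference of 2.02 ± 0.42 (adjusted p = 0.00605). LW HS 3 was at 8.06, inside the Creole range, and the remaining 5 LW HS arrays were at 10.04 or above. The TN differences were 2.27 to 2.81. ODC1, the ornithine decarboxylase itself, was lower in LW HS on both its probes, by 0.66 and 0.39, and is named here after its values were seen.

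FUT2, a fucosyltransferase that builds the H antigen on secreted and surface glycans, had arrays at 2 separate levels within Creole HS. Its 3 probes, from 3 stretches, were higher in LW HS by 1.30 to 2.99. On the brightest, LW HS ran from 9.03 through 9.31 to 10.09, and Creole HS from 4.88 through 5.25 to 9.31 (2.99 ± 0.73, adjusted p = 0.0204). In Creole HS 3 of 6 arrays were well above background on this probe, so that the size of the difference is not well measured, and it was 4.81 with the processed signal. The probe at 1.30 was well above background on all 12 arrays. Creole HS 3 and Creole HS 4, at 9.05 and 9.31, were at the level of the LW arrays, and the other 4 Creole arrays were between 4.88 and 5.31. Low arrays were not limited to Creole HS, since LW TN 5 was at 4.82 and F1 HS 3 at 5.07, and no Creole TN array was below 8.04. In TN the 3 probes differed the other way, by -1.33 to -0.56, and the interaction had an unadjusted p = 0.0004 on the brightest probe, which did not pass adjustment (the smallest adjusted p of any probe was 0.92). The call on the brightest probe was lost without Creole HS 1, 2, 5 or 6 (largest adjusted p = 0.0613) and in the fit of the 12 HS arrays alone (0.0535). The calls on the other probes were lost in 9 and 7 of 12 fits without 1 array (largest adjusted p = 0.113 and 0.0896) and in the fit of the 12 HS arrays. The call lost in 9 fits was also lost with slide as a fixed block and with the processed signal. Within slide 4 the difference on the brightest probe was -0.23.

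CD55, which protects cells from complement, was higher by 1.06 and 1.11 on its 2 probes, the brightest at 10.14, 10.60 and 10.67 (lowest, median and highest) in LW HS and 9.14, 9.41 and 9.75 in Creole HS (adjusted p = 1.62e-05). HIGD1B, of a family of hypoxia-induced membrane proteins, was higher by 0.98 and 1.05, and S100A2, a calcium-binding protein, by 1.01 and 1.02 on overlapping probes. The 12 arrays did not overlap between breeds for any of these 3 genes on the brightest probe. Among genes with a single probe, the widest was ODF3B, of the outer dense fibre family, at 2.23 ± 0.30 (adjusted p = 5.39e-05; 2.69 in TN), with LW HS at 7.86 to 9.82 and Creole HS at 6.37 to 6.98. CAPSL, calcyphosine-like, was higher by 1.83 (adjusted p = 0.0289). Its Creole HS arrays were of 2 kinds, with Creole HS 1, 2 and 6 at 8.35 to 8.81 and the other 3 at 10.96 to 11.28, and the call was lost in 6 of 12 fits that left out 1 array (largest adjusted p = 0.0917), in the fit of the 12 HS arrays alone and with slide as a fixed block (adjusted p = 0.0657 and 0.0562). PNPLA4, a patatin-like lipase, was higher by 1.24 (adjusted p = 0.00245). CTBS, a lysosomal chitobiase, was higher by 1.19 (adjusted p = 0.0184), and without Creole HS 2 its adjusted p was 0.0537.

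**Figure D3:**
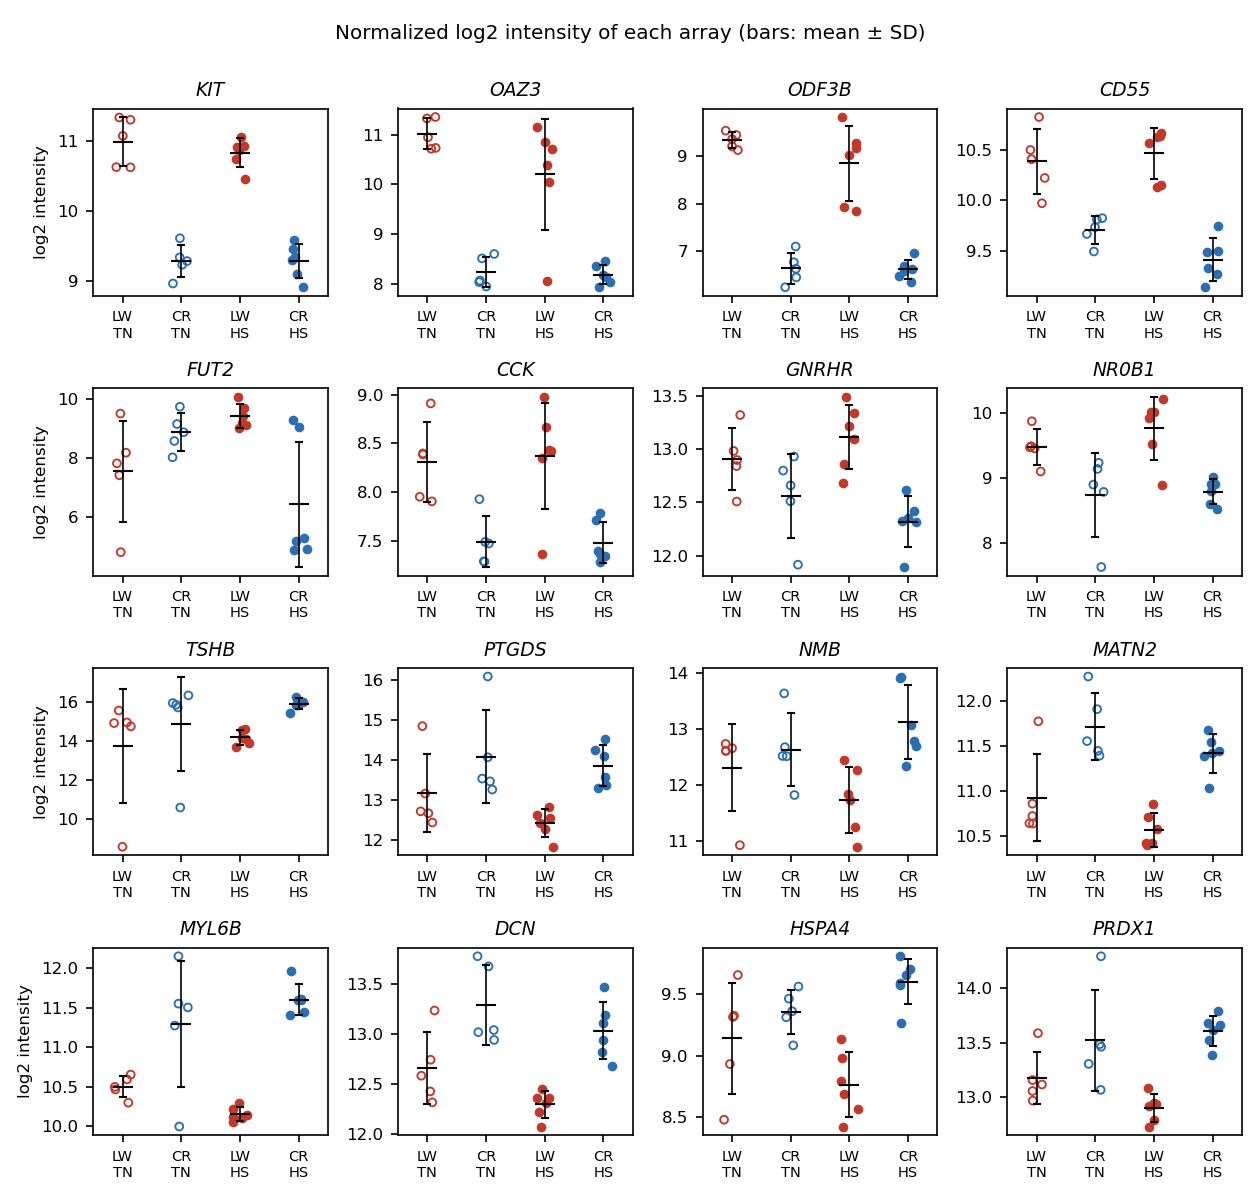
Log2 intensity of each of the 12 HS arrays and of the TN arrays on the brightest probe of 16 genes; each point is 1 array, by group, and the bars are the mean ± SD. KIT and MYL6B arrays do not overlap between LW HS and Creole HS, but on MYL6B Creole TN 3 is at 9.998, below the LW HS arrays. OAZ3 has LW HS 3 at 8.06, and FUT2 has Creole HS 3 and 4 at 9.05 and 9.31.

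The genes lower in LW HS on every probe included a peptide, 2 enzymes and several matrix proteins. PTGDS, which makes prostaglandin D2, differed by -1.43 ± 0.38 in limma (adjusted p = 0.0315). LW HS ran from 11.84 through 12.48 to 12.83, and Creole HS from 13.30 through 13.84 to 14.53. The arrays did not overlap, but the call was lost in 7 of 12 fits that left out 1 array (largest adjusted p = 0.0854). In TN the difference was -0.92. NMB, neuromedin B, a bombesin-like peptide, differed by -1.39 and -1.40 on 2 probes from separate stretches. The brightest ran from 10.90 through 11.78 to 12.44 in LW HS and from 12.35 through 12.93 to 13.94 in Creole HS, so that both groups met at 1 end (adjusted p = 0.0252). Its TN differences were -0.33 and -0.39, and the interaction had unadjusted p = 0.05 and 0.07. The call on the brightest NMB probe was lost without LW HS 5 or 6 or Creole HS 1, 4 or 5 (largest adjusted p = 0.0644).

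ALDH1A3, which makes retinoic acid, differed by -0.81 and -0.89 on its 2 probes, without overlap of the arrays on the brightest probe (adjusted p = 0.00563). SLC15A1, a transporter of short peptides, differed by -1.03 and -0.86, and SPAG6, a protein of the ciliary axoneme, by -0.96 to -0.55 on 3 probes from 3 stretches. Of these, SLC15A1 lost its call on the brightest probe in 9 of 12 fits without 1 array (largest adjusted p = 0.113), and SPAG6 and ALDH1A3 in none. Among single-probe genes, MYL6B, a myosin light chain, was lower, at -1.45 ± 0.23 (adjusted p = 0.000403), with LW HS at 10.05 to 10.30 and Creole HS at 11.41 to 11.97. The MYL6B levels did not follow breed on every array. Creole TN 3, at 9.998, was below every LW HS array, and the other Creole TN arrays were at 11.27 to 12.15. In F1 HS, 1 array was at 11.69 and the others were at 10.27 to 10.45. The TN difference of MYL6B was -0.79. TNN, a tenascin, differed by -1.08 (adjusted p = 0.0185; 0.0523 without Creole HS 3), and LY6H, of the Ly6 family, by -0.92 (adjusted p = 0.00499). TMEM213, a membrane protein, had LW HS at 7.54, 7.91 and 8.11 and Creole HS at 8.33, 8.89 and 9.26 (adjusted p = 0.0121). The arrays of both breeds did not overlap on any of these 4 probes, by the rule that chose them.

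Extracellular matrix genes held 5 calls by brightest probe, as did the pigment cell list, and 7 genes with any called probe (all genes, 5.26%). Of 37 measured collagen, laminin and matrix genes, 4 were called lower in LW HS by their brightest probe and 1 higher, with a median difference of -0.19 and 25 of 37 below 0, and 16 had an unadjusted p below 0.05 (all probes, 16.9%; all genes, median 0.0034; 1.35% called lower and 2% higher). In TN the median of the list was -0.40. MGP, the matrix Gla protein that restrains calcification, was lower on all 7 probes, at -0.87 to -0.80; on the brightest, LW HS ran from 13.08 through 13.58 to 13.97 and Creole HS from 13.93 through 14.30 to 15.11 (adjusted p = 0.0152). Of the other 6 MGP calls, 3 were lost in 4, 6 and 6 of 12 fits without 1 array (largest adjusted p = 0.104) and 3 held in all 12. The MGP call lost in 4 fits was also lost in the fit of the 12 HS arrays alone. DCN, the proteoglycan decorin, was lower on all 6 probes, at -0.83 to -0.68, with LW HS at 12.08, 12.33 and 12.45 and Creole HS at 12.68, 13.02 and 13.46 on the brightest (adjusted p = 0.0212). COL1A2, a chain of type I collagen, differed by -0.60 (adjusted p = 0.0144) and OGN, the proteoglycan osteoglycin, by -0.68 (adjusted p = 0.0367). Without Creole HS 1 the calls of MGP, DCN and COL1A2 on the brightest probe were lost, at adjusted p = 0.0568, 0.0699 and 0.0514.

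Both matrilin and dermatopontin, which were not in that list, moved the same way. MATN2, matrilin-2, was lower on all 8 probes from 7 stretches, at -0.92 to -0.66, with no overlap of arrays on any of them. On its brightest probe LW HS ran from 10.40 through 10.50 to 10.86 and Creole HS from 11.03 through 11.43 to 11.67 (adjusted p = 0.00487), and leaving out any 1 array kept the call on all 8. DPT, dermatopontin, differed by -0.74 on its brighter probe (adjusted p = 0.0232, lost without LW HS 5 or Creole HS 1); on its dimmer probe 0 of 6 LW HS arrays were well above background against 5 of 6 Creole HS arrays, and Creole HS was at least 1.61-fold higher. In the other direction, THBS3, a matrix thrombospondin also outside that list and chosen after its values were seen, was higher in LW HS on both probes, by 0.89 and 1.05. The 1 list member called higher by its brightest probe was LAMC1, the laminin gamma 1 chain of basement membranes, at 1.20 ± 0.19 (adjusted p = 0.000403), with LW HS at 10.27, 10.64 and 11.17 and Creole HS at 8.78, 9.51 and 10.22. The summed intensity of the matrix list ran from 111184 to 132934 in LW HS and from 124216 to 169288 in Creole HS.

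TSHB, the beta chain of thyrotropin, was the hormone gene with the widest breed difference. All 6 LW HS arrays were lower than all 6 Creole HS arrays, at 13.69 to 14.63 (median 14.14) and 15.46 to 16.28 (median 15.93). The difference was -1.73, between -2.11 and -1.45 within slides. In the 33-array limma fit it was not called (SE 0.81, adjusted p = 0.27), and in the fit of the 12 HS arrays alone it was (SE 0.17, adjusted p = 0.000174). The pooled spread of the larger fit takes in 2 TN arrays far below the rest, LW TN 2 at 8.55 and Creole TN 1 at 10.57. Those 2 arrays were the highest of all 33 on the brightest probes of PTGDS (14.85 and 16.09) and MGP (15.34 and 15.46), values chosen after they were seen. Whether they held other tissue was not tested. The TN difference of TSHB was -1.14. The other hormone genes had brightest-probe differences of -0.08 (GH1, growth hormone), -0.04 (PRL, prolactin), 0.01 (POMC), 0.07 (CGA, the alpha chain shared by thyrotropin and the gonadotropins), 0.41 (LHB, luteinising hormone beta; adjusted p = 0.14) and 0.16 (FSHB, follitropin beta). None passed the test. POMC had 5 probes, at -0.48 to 0.01, and that at -0.48 had an adjusted p of 0.0759. GH1, PRL, POMC and CGA, at 18.83 or above, by their brightest probe, are near the top of the intensity scale, and compression there was not tested.

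Receptors that carry hypothalamic and feedback signals held 3 calls by brightest probe among 27 measured genes (median 0.036; all genes, 3.35% called), and 6 had any called probe (all genes, 5.26%). GNRHR, the receptor for gonadotropin-releasing hormone, was higher in LW HS on both probes, by 0.79 and 0.81. On the brightest, LW HS ran from 12.68 through 13.15 to 13.49 and Creole HS from 11.90 through 12.34 to 12.62 (adjusted p = 0.0222), with no overlap and a TN difference of 0.35. That call was lost without LW HS 5 or Creole HS 5 (largest adjusted p = 0.056). The call on the other GNRHR probe was lost in 7 of 12 fits without 1 array (largest adjusted p = 0.0804). ESR1, the oestrogen receptor alpha, was called on 2 of its 5 probes, by 0.53 and 0.55, and its other 3 probes were at 0.27 to 0.30. On the brightest ESR1 probe LW HS ran from 9.87 to 10.33 and Creole HS from 9.35 to 9.73 (adjusted p = 0.00414). NR3C1, the glucocorticoid receptor, was lower, at -0.29, on 1 of 4 probes (adjusted p = 0.0438), a call lost in 9 of 12 fits without 1 array.

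CRHR1, the receptor for corticotropin-releasing hormone, was called on 1 of its 3 probes only, at -0.78 (adjusted p = 0.00338), and the other 2 were at -0.45 and -0.44; it was not called by its brightest probe. THRA, a thyroid hormone receptor, and GHR, the growth hormone receptor, likewise had 1 called probe each, at -0.33 of 3 and -1.25 of 6 probes. The THRA call was lost without LW HS 3, LW HS 4 or Creole HS 1 (largest adjusted p = 0.0687) and in the fit of the 12 HS arrays alone. TRHR, the receptor for thyrotropin-releasing hormone, had 1 probe, at -0.48 (adjusted p = 0.0675). Lineage factors held 2 calls among 17 measured genes (median 0.055; all genes, 3.35%). NR0B1, a nuclear receptor of the gonadotrope and adrenal axis, was higher by 0.98 (adjusted p = 0.0116) on 1 of 2 probes, with LW HS at 8.90 to 10.23 and Creole HS at 8.52 to 9.02. NEUROD1, a corticotrope differentiation factor, was lower on both its overlapping probes, at -0.58 and -0.60, and NR5A1, the gonadotrope factor, was at 0.60 (adjusted p = 0.087).

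Of the chaperones, the genes best known to answer heat, 48 were measured, and 0 were called higher and 2 lower, with a median of 0.0070 (all genes, 2% higher and 1.35% lower). HSPA4, an HSP110-family chaperone, was lower, at -0.84 ± 0.20 (adjusted p = 0.0203), with LW HS at 8.42, 8.74 and 9.14 and Creole HS at 9.27, 9.63 and 9.81. FKBP4, a co-chaperone of steroid receptors, was lower, at -0.35 (adjusted p = 0.00295), and its other 2 probes were at -0.29 and -0.15. The FKBP4 call was lost with the processed signal. HSP90AB1 was called on 1 of 7 probes, at -0.46, and that call was lost in 8 of 12 fits without 1 array (largest adjusted p = 0.103) and with slide as a fixed block; within slide 2 the difference was 0.0097. HSPA8 was at -0.13 and HSP90AA1 at 0.40, and neither passed the test (adjusted p = 0.67 and 0.24). None of 14 glucocorticoid-responsive genes was called by brightest probe, nor of 9 genes of thyroid hormone action, 28 of lipid synthesis, 69 ribosomal proteins, 14 clock genes, 16 immediate early genes and 15 of the secretory granule. By any probe 3 of the 14 and 2 of the 9 were called, and 3 of the ribosomal proteins (all genes, 5.26%). In limma the brightest probes of those lists held 0, 1, 5, 7, 4, 0 and 1 genes at an unadjusted p below 0.05, in the same order (16.9% of all probes).

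Redox genes held 2 calls of 53 measured by brightest probe (median 0.0032), both lower (all genes, 3.35%), and 8 had any called probe (all genes, 5.26%). PRDX1, a peroxiredoxin that removes peroxide, was at -0.71 ± 0.13 (adjusted p = 0.0023), with LW HS at 12.73 to 13.08 and Creole HS at 13.38 to 13.79; its second probe, which overlaps the first, was at -0.64. TXNRD3, a thioredoxin reductase, was at -0.43 (adjusted p = 0.00888). Among 39 genes of xenobiotic and steroid metabolism, EPHX2, a soluble epoxide hydrolase (-0.73), and SULT1E1, an oestrogen sulfotransferase (-0.53), were called lower (all genes, 1.35%), both lost in 7 or 8 of 12 fits without 1 array. NDUFB1, of mitochondrial complex I, was the 1 call of 53 genes of oxidative phosphorylation (all genes, 2% higher), at 0.44 (adjusted p = 0.0403, lost in 8 of 12 such fits and with slide as a fixed block), and its TN difference was -0.10.

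The immune lists of 35, 26 and 30 measured genes held 1 call each, where 3.35% of all genes were called; by any probe 1, 4 and 4 of their genes were called (all genes, 5.26%). The summed intensity of the interferon-stimulated genes ran from 103227 to 592436 in LW HS and from 97915.9 to 232544 in Creole HS. In that list the 1 call was XAF1, a pro-apoptotic protein, higher by 1.39 (adjusted p = 0.0222) on 1 of 2 probes, the other at 0.68 and not called. LW HS 3 was at 11.21, and the other 5 LW HS arrays at 8.63 to 9.50, against Creole HS at 7.62 to 8.66. Without that array the difference was 1.04 and the adjusted p 0.0684, and without Creole HS 1 the adjusted p was 0.0625. The XAF1 call was also lost in the fit of the 12 HS arrays alone (adjusted p = 0.0548). B2M, the light chain of MHC class I, was higher by 0.46 (adjusted p = 0.0382) among 26 antigen presentation genes, and lost its call in 9 of 12 fits without 1 array. CD55 was the 1 call of 30 complement genes.

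IGFBP5, a binding protein of insulin-like growth factors, was higher by 0.80 (adjusted p = 0.00276), the 1 call of 19 genes of that system (all genes, 3.35% called). KCNMA1, a calcium-activated potassium channel, was higher by 0.46 on 1 probe, with its other probe at 0.04, and SCN8A, a sodium channel, was lower, at -0.60. They were the 2 calls of 23 channel genes (all genes, 3.35%). In the pigment cell list of 14 genes (all genes, 2% higher and 1.35% lower), 2 were called higher, KIT and ASIP (0.40), and 3 lower: EDN3 (-0.64), MITF (-0.31) and SLC45A2 (-0.71). The MITF and SLC45A2 calls were each lost in 8 of 12 fits without 1 array, that of SCN8A in 6, and that of EDN3 without LW HS 4 or Creole HS 1 or 2. The SLC45A2 call was also lost with slide as a fixed block. The list was written with the KIT difference known. Cell cycle genes (25 measured) held 0 calls and 6 at an unadjusted p below 0.05 (16.9% of all probes), with 21 above 0 and a median of 0.22 in HS and -0.0060 in TN. Among lists of other cell types, KDR, an endothelial receptor for VEGF and the neighbour of KIT on the chromosome, was higher by 0.86 (adjusted p = 0.0124) on 1 of 3 probes, the others at 0.19 and 0.04. It was the 1 call of the endothelial list of 13 (all genes, 3.35%). The posterior lobe (10 measured), intermediate lobe (5), leukocyte (17), folliculostellate (7) and muscle and fat (13) lists held 0 calls by brightest probe in limma (by any probe, 1 in the muscle and fat list), with 3, 1, 1, 3 and 1 genes at an unadjusted p below 0.05.

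**Figure D4:**
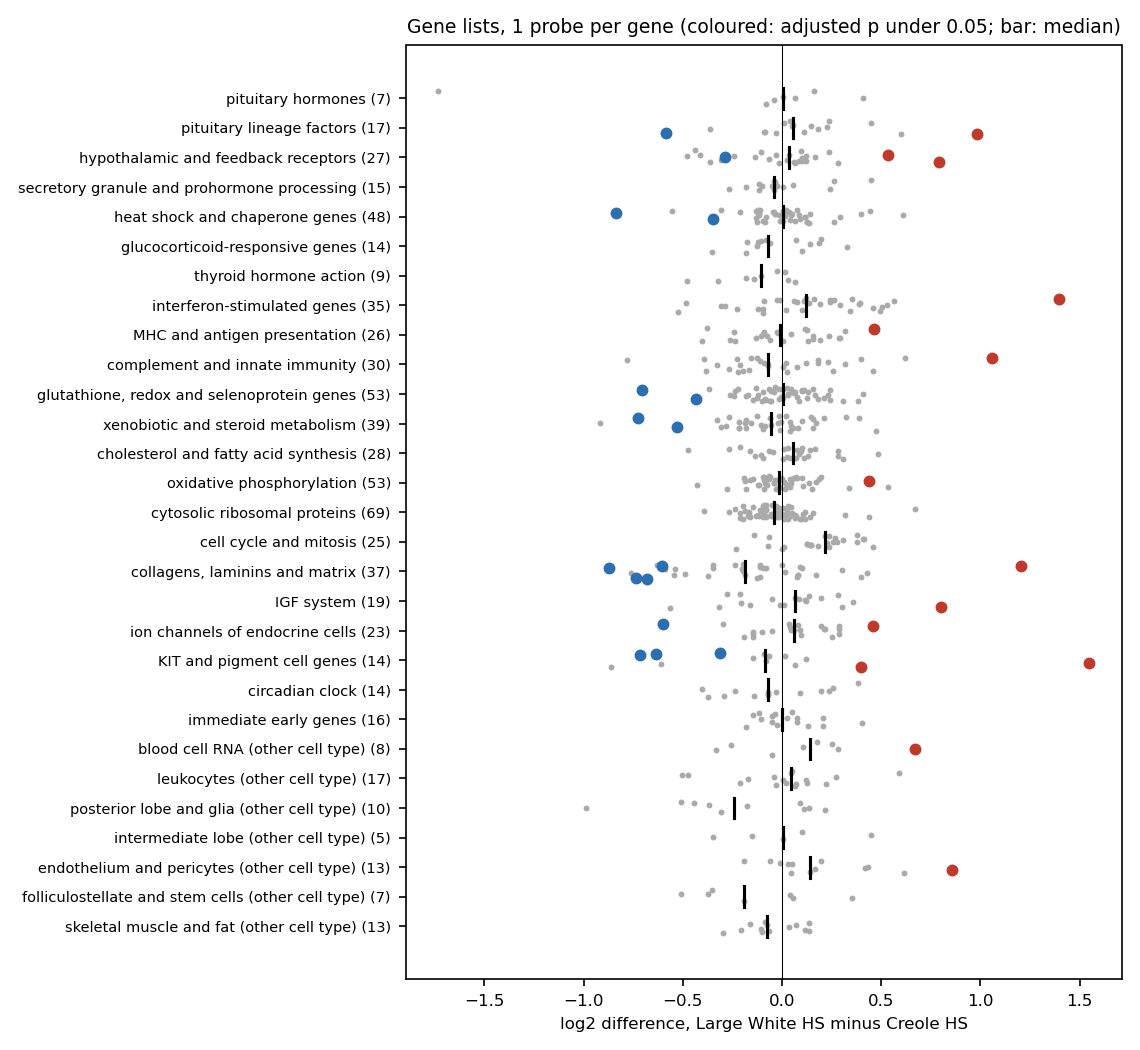
LW HS minus Creole HS difference (log2, horizontal axis) of the brightest probe of each measured gene in each list; each point is 1 gene, with called genes marked and the list median drawn. The matrix list has its median at -0.19, with 12 of 37 genes above 0, and the chaperone list has a median of 0.0070.

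Whether several probes of a gene agree was asked of 4952 genes with 2 or more probes. In 376 of them at least 1 probe was called. In 50 genes every probe was called one way, 24 higher and 26 lower, and in 36 of these the probes came from 2 or more separate stretches (probes sharing a run of 20 bases count as 1 stretch). All probes of 49 of the 50 had the same sign in TN; the exception was FUT2. In 217 genes some probes were called and the others had the same sign, in 105 the others were of mixed sign, and in 4 probes were called in opposite directions. A called probe's sister in another stretch had the same sign in 85.7% of 1627 pairs and was itself called the same way in 30.2%, against 68.8% and 2.81% over all probes. Sisters of probes called at 1 or more were called the same way in 46.4% of pairs, and those of probes called under 0.5 in 15.9%. Probes of one gene are read from the same RNA, so that their agreement bears on the probe and not on the animals.

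**Figure D5:**
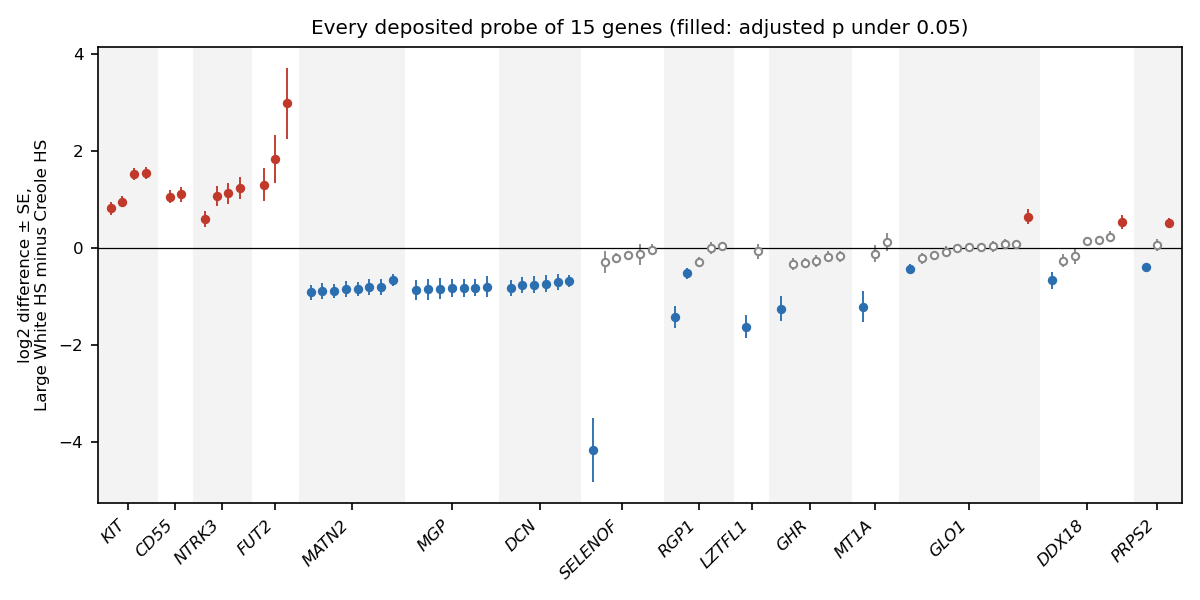
LW HS minus Creole HS difference (log2, vertical axis) of each probe of 15 genes, with its SE; filled points were called, and shaded or plain bands separate the genes. MATN2, MGP, DCN and KIT have all probes on one side of 0, and SELENOF has 1 probe at -4.18 with 5 others between -0.29 and -0.04.

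SELENOF, an endoplasmic reticulum selenoprotein, had 1 probe at -4.18 ± 0.66 (adjusted p = 0.000403), with LW HS at 6.36, 7.16 and 7.63 and Creole HS at 10.34, 11.45 and 12.06, while the other 5 probes were between -0.29 and -0.04. In TN that probe was at -4.04. The window below is the end of the run that it shares with the probe A_72_P562884, at -0.13. Capitals mark the shared run up to its end at T21A (counted from the 5′ end of the window). The 4 bases that follow in the shorter window are alike again. The shared run is only 21 bases long and the bases before it are not shown, so that T21A need not be the only difference between these probes.
SELENOF A_72_P562884: CATTGATCAGTCTCTTACCGtgaggcattc
SELENOF CUST_56_PI427286967: CATTGATCAGTCTCTTACCGagagg

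RGP1, a subunit of a Golgi exchange factor, had probes that step along 1 stretch. The last 30 bases of 3 of them are shown, capitals marking bases within the first; the second ends 16 and the third 33 bases beyond it. Their differences were 0.04, -0.53 and -1.43, and both the second and the third were called, at adjusted p = 0.0128 and 0.000441. On the last, LW HS was at 5.94 to 7.39 and Creole HS at 7.80 to 8.07.
RGP1 A_72_P287794: ACTTATTTATTCAGAATAAATTGGCAGCTG
RGP1 A_72_P494650: TAAATTGGCAGCTGctagtggtttccctgg
RGP1 A_72_P501524: gtggtttccctggaagtggcagcagcagtg

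GHR behaved likewise, with 1 of 6 probes at -1.25 ± 0.25 (adjusted p = 0.00414; LW HS 8.51 to 10.12, Creole HS 10.27 to 10.63) and the others at -0.33 to -0.17. LZTFL1, a ciliary trafficking protein, had 1 probe at -1.63 and another at -0.07. MT1A, a metallothionein, had 1 probe at -1.21 (adjusted p = 0.0298), with sisters at 0.12 and -0.12. On the called probe LW HS ran from 9.31 to 10.55 and Creole HS from 10.32 to 12.24. Its call was lost with slide as a fixed block and in 7 of 12 fits without 1 array. SOD2, the mitochondrial superoxide dismutase, and RBM38, an RNA-binding protein, each had 1 probe far above the others, at 1.83 and 1.63, whose calls were lost in 11 and 9 of 12 such fits. APOD, apolipoprotein D, had 4 of 5 probes called, the widest at -1.23, and the fifth at -0.81 (adjusted p = 0.0872), with TN differences of -0.39 to -0.02. Of its 4 calls, 3 were lost in 5, 5 and 8 of 12 fits without 1 array (largest adjusted p = 0.0989). The APOD call lost in 8 fits was also lost with slide as a fixed block. Unadjusted interaction p-values ran from 0.012 to 0.077. SLA-3, an MHC class I gene of many alleles, had 2 of 8 probes called, at 1.46 and 1.23, and others between -0.11 and 0.83. Of these SLA-3 calls, 1 was lost without LW HS 3 or Creole HS 1, 2 or 6 (largest adjusted p = 0.0701). The same call was also lost with slide as a fixed block. The SELENOF, RGP1, LZTFL1, GHR, SOD2, RBM38, SLA-3 and APOD values were chosen after they were seen, as were those given for HSP90AB1, HSPA8, HSP90AA1, CRHR1, THRA, TRHR, NR5A1, OGN, ASIP, ODC1, AVP and ACTA1 and the names of genes in neighbouring runs and pairs.

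In 4 genes different probes were called in opposite directions, and in 3 of them 1 or both calls were lost in fits that left out 1 array. GLO1, which detoxifies methylglyoxal, had 11 probes, 1 called at 0.65 (adjusted p = 0.0225; LW HS 10.12 to 11.35, Creole HS 9.86 to 10.71) and 1 at -0.43 (adjusted p = 0.0135), while the brightest was at -0.01. The call at 0.65 was lost without LW HS 2, 3 or 6 or Creole HS 1 or 2 (largest adjusted p = 0.0778) and in the fit of the 12 HS arrays alone. The first called probe shares 34 bases with that brightest probe, and capitals mark the end of their run, beyond which they part at T21C (counted from the 5′ end of the window).
GLO1 A_72_P540298: GCAATTCAAACAAATAGCAGtactta
GLO1 A_72_P608627: GCAATTCAAACAAATAGCAGcacttataaa

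The others were DDX18, an RNA helicase (-0.67 and 0.53 among 7 probes), SSX2IP, a centrosomal protein (0.41 and -0.69 of 3), and PRPS2, which makes phosphoribosyl pyrophosphate (0.51 and -0.40 of 3). In SSX2IP the call at 0.41 was lost in 8 of 12 fits without 1 array (largest adjusted p = 0.142), in the 12-array fit and with slide as a fixed block. In DDX18 the call at 0.53 was lost in 8 of 12 (largest 0.115) and with slide as a fixed block, and that at -0.67 without Creole HS 1, 3 or 5. In PRPS2 both calls held in all 12 such fits, and that at -0.40 was lost in the 12-array fit. What sets these probes apart was not tested.

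Of 521 called genes with a position, 52 (9.98%) had another called gene as their next measured neighbour, against 10.3% of all 9812 genes. Without LW HS 3 these shares were 7.09% and 5.89%. The 2 runs of 3 called genes were SMC5, KLF9 and TRPM3, and CREB3, GBA2 and RGP1. Of 23 pairs, KIT and KDR, and UBA6 and GNRHR, were both higher in LW HS, GHR and SELENOP, a plasma selenium carrier, were both lower, and OAZ3 lay beside MRPL9 with opposite signs. Single probes with the smallest interaction p were of an unnamed expressed sequence tag, of APP, the amyloid precursor protein gene (0.58 in HS and -0.14 in TN, unadjusted p = 9.5e-05), and of a tag without symbol (0.70 and -0.13), and none passed adjustment.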

How the data were processed

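The authors hybridised Cy3-labelled RNA of each pig to a one-colour array, read it with Agilent Feature Extraction 10.10.1.1, imported the median pixel intensity with limma, quantile-normalized it with preprocessCore, and deposited log2 values of 45667 probes, which were used here. The scanner files give intensity and marks (0 or 1) for signal well above background, as deposited by the authors. Over 33 arrays, median intensity was 131 to 165, 73.5 to 82.2% of spots were well above background and 0 were saturated; the array number limits precision. The deposited log2 values differed from quantile normalization of the scanner median intensity, with no background correction, by a median of 0.0038, and 59 were missing.

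Probes were named by the scanner files' gene name, or through its accession or synonym in a RefSeq gene table (20829 probes, 45.6%, 10068 symbols). The brightest probe over 33 arrays stood for a gene. limma 3.58.1 in R 4.3.3 was fitted with 1 mean per breed and temperature (33 arrays), with Benjamini-Hochberg adjustment, two-sided, without covariates. The fit was tested on simulated data. Genes named were, by direction, the 8 widest multi-probe genes with every probe called, the 4 widest single-probe genes without overlap of the arrays, the discordant genes, up to 4 called genes per list, the hormones and the 3 smallest interaction p-values; others are said to have been chosen after their values were seen. Members and lists were chosen with earlier results of these data known. Alternatives changed the arrays, breed of LW HS 3, slide, weights, normalization, background, filter and variance prior. One result is not reported here.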

Additional observations from a re-analysis of the deposited data

Results flagged for a closer look

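Of 278 groups of 6 arrays examined on the named probes, 20 held an array whose gap to the nearest other array, over the range of the group, was above Dixon's 95% critical value; chance gives about 1 in 20. In LW HS, LW HS 3 was low on the 3 OAZ3 probes, at 8.06, 7.31 and 7.87, and high on XAF1, at 11.21. LW HS 4 was apart on 2 NTRK3 probes (6.91 and 10.18), GLO1 (10.12), EDN3 (5.23), KDR (9.10) and LZTFL1 (11.66), and LW HS 2 on an unnamed tag (9.79).

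In Creole HS, Creole HS 5 was apart on 2 B2M probes (16.54 and 16.84), SLA-3 (12.94) and 2 EDN3 probes (6.10 and 5.95). Creole HS 2 was apart on MYL6B (11.97), Creole HS 3 on LZTFL1 (11.81), Creole HS 4 on IGFBP5 (12.33) and Creole HS 6 on GLO1 (10.24). LW HS 3 is the array whose breed labels disagree, and its position on the breed probes is given with the groups. No sample was removed for these values.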

How the results depend on the processing

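The count of called probes (1424) was 846 without LW HS 3, 204 with it as Creole and 2457 with array weights, which also moved the share called higher from 56.5% to 51.8% (50.1% without LW HS 1); other settings gave 1195 to 1789, and leaving out 1 array gave 710 to 1465. The same-sign share in TN (91.2%) was 93.8% in the 12-array fit, 96.3% without LW HS 3, 98.5% with it as Creole, 94.1% with slide as a fixed block and 84.0% with weights; leaving out 1 array gave 84.4 to 96.3%. Genes with every probe called (50) numbered 32, 8 and 86 without LW HS 3, with it as Creole and with weights, and 23 to 46 leaving out 1 array. List calls (30) were 58 by any probe and, in settings added after seeing the data, 21 without LW HS 3 and 5 with it as Creole. The share of called genes beside a called gene was 7.09% without LW HS 3 (all genes, 5.89%). Interaction calls were 0 in every setting run, with a smallest adjusted p of 0.143 under weights (4615 unadjusted). Of 139 named probes, 104 kept side and direction without LW HS 3 and 40 with it as Creole, and 110 in the 12-array fit, where 28 lost their call and 1, TSHB, gained one. Differences turned sign within slide 4 for FUT2 (-0.36, -0.23 and -0.29) and NEUROD1 (0.057), within slide 3 for MGP (0.075, 0.12 and 0.066), within slide 2 for SCN8A (0.18) and HSP90AB1 (0.0097), and for POMC, near 0, without 1 array (range -0.0032 to 0.017). The causes were not tested. No paired analysis was possible because replicate numbers were given in accession order and pair nothing. Signal over background limits dim probes; 41480 were well above it on all 12 arrays.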
